A study of Saccharomyces cerevisiae with 6 samples.

Results

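The arrays described here are the 2 kb stretches of the budding yeast genome in which nucleosomes followed each other at the most even spacing in wildtype cells. Each chromosome was divided into tiles of 2000 bp from its first base, and 6006 of 6029 full tiles held at least 200 read centres in the wildtype 0 h library. Within each tile the density of read centres was smoothed (Gaussian s.d. 10 bp) and compared with itself after a shift, and the highest correlation at any shift between 150 and 190 bp in wildtype at 0 h gave the tile its rank. The top 10% were kept, so the 601 arrays, on 16 chromosomes, were chosen by their wildtype 0 h regularity. Regularity is the name used here for that correlation. A value near 1 means that the pattern of peaks repeats itself after 1 nucleosome-to-nucleosome step, and a value near 0 means that it does not repeat.

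The data were 6 single-end MNase-seq libraries, in which micrococcal nuclease digests the DNA between nucleosomes and the protected DNA is sequenced. The H3 shutoff strain DCB200.1 lacks HHT1 and carries HHT2, its only remaining histone H3 gene, under the galactose-inducible GAL1 promoter. The wildtype strain was YEF473A. All cultures grew in galactose and were moved to dextrose, which stops H3 synthesis in the H3 shutoff strain only, and cells were fixed with formaldehyde at 0 h or 3 h after the move. H3 shutoff had 2 libraries at each time (n = 2) and wildtype had 1 library at each time (n = 1). The 0 h and the 3 h library of a replicate came from 1 culture. Per the methods, H3 shutoff cells pass through 1 S phase in dextrose and then arrest in G2/M, so the H3 shutoff 3 h cells also differ from the 0 h cells in cell cycle stage. The part of that arrest in the values given here cannot be told apart from that of H3 depletion. The authors drew an equal number of reads for every library, 4999916 to 4999983 of which had their centre on the nuclear chromosomes, so a loss spread evenly over the genome would not appear as fewer reads.

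A nucleosome is a stretch of DNA wrapped around an octamer of histones H2A, H2B, H3 and H4. In budding yeast, nucleosomes are typically lined up from the nucleosome-depleted region of a promoter into the gene body, with short linkers between them. Chromatin remodelling enzymes such as Chd1, Isw1 and Isw2 and DNA-bound barrier factors set such arrays, and replication disrupts and rebuilds them with parental and newly made histones. Regularity reports on the order of the nucleosomes within the population of cells and does not count them. Uneven loss of nucleosomes and reads between the peaks lower it too. According to the study, H3-depleted chromatin was more sensitive to the nuclease and gave more background smearing on gels. The part of this in the values given here was not tested.

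In wildtype at 0 h the regularity of the 601 arrays ran from 0.621 to 0.884, with a mean of 0.686 against 0.359 in the other 5405 tiles. These values chose the arrays and are given as a description only. The 3 tiles just inside the limit were chr15:164001-166000 (0.621), chr10:22001-24000 (0.621) and chr7:852001-854000 (0.621). The 3 just outside it were chr12:862001-864000 (0.620), which overlaps SSQ1, ARC18 and ROM2, chr4:320001-322000 (0.620) and chr12:762001-764000 (0.620), which overlaps SPH1 and the septin gene CDC3. Tiles just outside the limit were thus hardly less regular in wildtype at 0 h than those just inside it. Coordinates are those of the sacCer1 build used for the deposited intervals.

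The arrays were spread over the whole genome. They made up 6.41% of the ranked tiles on chromosome 3, the lowest share, and 14.8% on chromosome 6, the highest. Within 10 kb of a chromosome end, 6 of 154 tiles (3.90%) were members, and within 20 kb 21 of 310 (6.77%). Members were about as frequent beside another member as among all tiles. The tile borders and the limit are fixed, so a lone member does not show where an array ends. Of 1199 positions next to a member, 116 (9.67%) held another member, against 10.0% of all tiles, and 490 members had no member beside them. There were 48 runs of 2 tiles and 5 runs of 3, the longest. These 5 were chr2:40001-46000, chr7:210001-216000, chr14:568001-574000, chr15:218001-224000 and chr16:706001-712000.

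Each array was well covered. In H3 shutoff the median array held 877 (replicate 1) and 894 (replicate 2) read centres at the start and 846 and 864 after 3 h, and in wildtype 917 and 918. The other tiles had medians of 788 to 821 in all libraries. The deposited lists placed a mean of 8.74 to 9.74 nucleosomes in each array, depending on the library.

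Regularity fell in both H3 shutoff cultures after 3 h in dextrose. Averaged over the 601 arrays it started at 0.548 in replicate 1 and 0.606 in replicate 2 and ended at 0.275 and 0.343. Wildtype had 0.634 at 3 h. Both 3 h H3 shutoff values lay below every other library, and the range in which 80% of the arrays lay moved from 0.389 to 0.690 down to 0.0685 to 0.470 in replicate 1. In replicate 2 it moved from 0.491 to 0.720 down to 0.147 to 0.520. The change from 0 h to 3 h was −0.272 and −0.263, a mean of −0.268 ± 0.0064 (SD, n = 2 pairs), and 50.3% and 56.6% of the 0 h level was left. The wildtype pair changed by −0.0527, but the start of that pair is the library that supplied the ranking, so its fall is set in part by the choice of arrays.

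**Figure D1:**
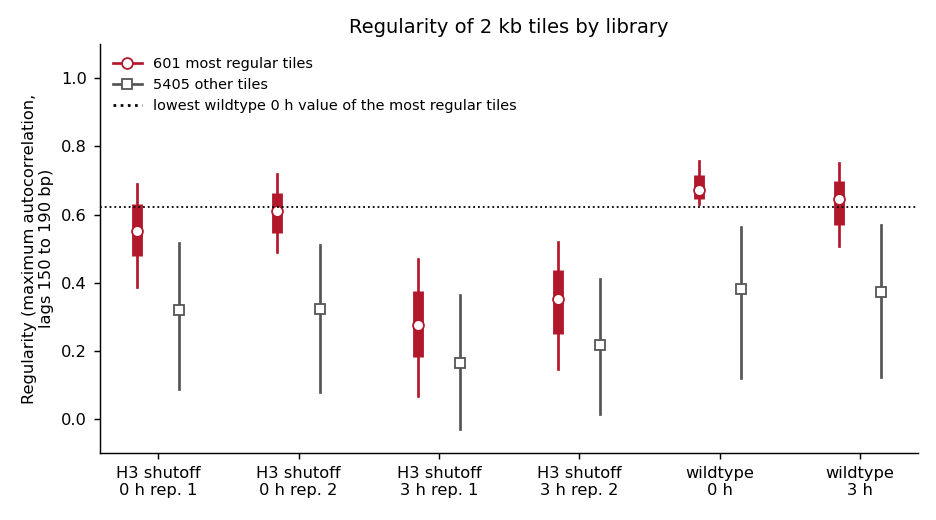
Regularity (autocorrelation, no unit) of the 601 arrays and of the 5405 other tiles in each of the 6 libraries, with a symbol at the median and a thin line from the 10th to the 90th percentile (for the arrays also a thick bar over the middle 50%). The dotted line is the lowest wildtype 0 h value of the arrays, which those values chose, and the H3 shutoff 3 h arrays sit lowest, with means of 0.275 and 0.343.

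The other tiles also lost regularity, but less in absolute terms, from a lower start that left them less to lose. Their mean started at 0.311 and 0.309 in the H3 shutoff cultures and ended at 0.167 and 0.217, while wildtype had 0.359 and then 0.360. Their change was −0.145 and −0.0922 (mean −0.118 ± 0.037, SD, n = 2 pairs), so the arrays lost 0.150 ± 0.031 more than the rest, in both pairs. With at most 1 read counted per identical interval the same difference was −0.0939. An exact two-sided permutation test on 2 against 2 libraries has a smallest p of 1 in 3, and means over tiles therefore carry no p here. At 3 h the mean of the arrays was still above that of the other tiles, although 146 and 126 arrays lay below the median of all tiles.

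The direction was shared by nearly all arrays. Regularity was lower at 3 h in 571 arrays in replicate 1 and 586 in replicate 2, against 81.4% and 71.8% of the other tiles. In both pairs 559 arrays were lower (93.0%, against 62.1% of the other tiles) and 3 were higher (0.499%, against 8.92%). Both 3 h values lay below both 0 h values in 540 arrays (89.9%), against 58.3% of all ranked tiles. At 0 h 173 and 277 arrays of H3 shutoff reached the wildtype limit of 0.621, as did 368 arrays in wildtype at 3 h. At 3 h in H3 shutoff only 5 and 16 did.

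Array by array, limma with the culture as a block called lower regularity at 3 h in 347 of the 601 arrays (57.7%) at an adjusted p under 0.05, against 22.2% of all 6006 tiles. It called higher regularity in 0 arrays, against 0.333% of all tiles. At an unadjusted p under 0.05, 443 arrays were lower and 0 higher, against 2099 and 58 of all 6006 tiles. The fit estimated a single variance for all tiles from 1 residual degree of freedom, so every tile has the same standard error of 0.0945. A call therefore depends on the size of the estimated loss alone. Arrays started higher and had more to lose, and the shares called carry this difference in start. Leaving out a library moved the count strongly in fits without the block. The median estimate over the arrays then ran from −0.298 to −0.220, against −0.258 in the main fit.

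Against wildtype at the same 3 h, a contrast without the library that ranked the tiles, the arrays of H3 shutoff were again the less regular. limma called 315 of 601 lower in H3 shutoff (52.4%), against 23.5% of all tiles, and 0 higher, against 0.15%. At an unadjusted p under 0.05 the numbers were 461 and 1, against 2423 and 36 of all 6006 tiles. This comparison and the one before it share the H3 shutoff 3 h libraries, and the wildtype side is a single library. Before H3 was shut off, H3 shutoff arrays already had lower regularity (0.548 and 0.606) than wildtype at 3 h (0.634). The contrast includes this gap. In wildtype at 3 h the arrays also stood above the other tiles (0.634 against 0.360), and the shares called carry this difference.

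The pattern of repeats lost its reach, while the length of the first step differed little between 0 h and 3 h. In the mean autocorrelation over the 601 arrays the first repeat of the H3 shutoff cultures peaked at 174 and 171 bp before and at 173 and 172 bp after H3 depletion, and that of both wildtype libraries at 171 bp. The change in repeat length was −1 bp in one pair and 1 bp in the other, so no change in the first step larger than the spread between the pairs was seen. The fourth repeat moved from 674 to 665 bp and from 666 to 663 bp in H3 shutoff, and from 668 to 661 bp in wildtype. The median distance between neighbouring called nucleosome centres was 185 bp in both 0 h libraries and 188 and 190 bp at 3 h, and 185 and 188 bp in wildtype. A step that keeps its mean length can still be less sharply defined, and the position of the maximum in single arrays did scatter more, as it did in the other tiles. In the arrays it lay within 5 bp of the wildtype 0 h position in 494 and 564 arrays at 0 h, in 304 and 372 at 3 h, and in 571 in wildtype at 3 h. At 3 h it fell on the border of the 150 to 190 bp range in 65 and 28 arrays (10.8% and 4.66%), against 4 and 1 at 0 h. In the other tiles the share within 5 bp went from 62.4% and 78.9% to 41.4% and 49.1%, and 22.5% and 13.2% were on the border at 3 h.

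The later repeats were the closest to 0 at 3 h. At the first repeat the mean autocorrelation of the H3 shutoff cultures dropped from 0.532 to 0.253 and from 0.591 to 0.326. The second repeat stood at 0.280 and 0.344 at 0 h, against 0.046 and 0.091 at 3 h. By the third repeat the 0 h values were 0.144 and 0.181 and the 3 h values −0.0083 and 0.021. In wildtype the second repeat was 0.421 at 0 h and 0.371 at 3 h, and the third was 0.240 and 0.214. The third repeat of H3 shutoff at 3 h was thus near 0, while wildtype still had 0.130 and 0.119 at the fourth.

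**Figure D2:**
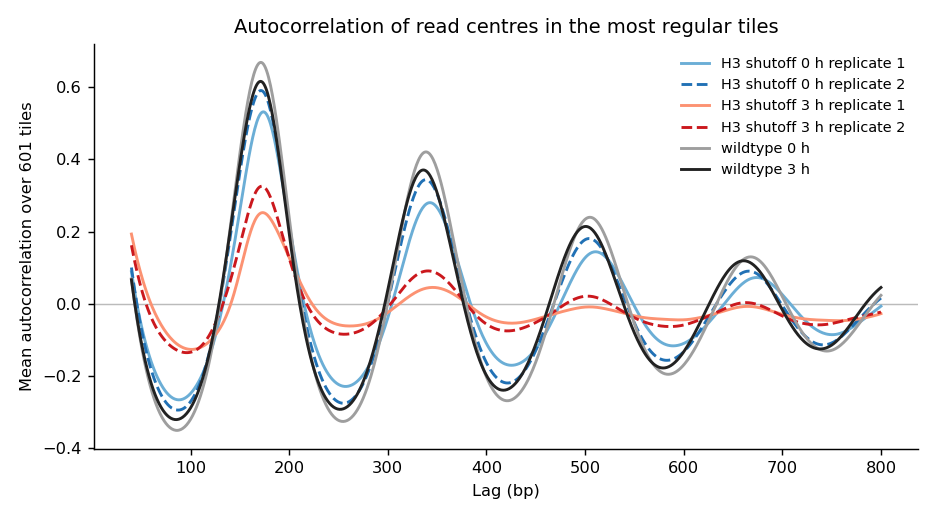
Mean autocorrelation over the 601 arrays against the shift in bp, 1 curve per library. The first maximum lies at 171 to 174 bp in all 6 curves, and the later maxima are nearly gone in the H3 shutoff 3 h curves.

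Contrast was also lower at 3 h in the density around the nucleosome of each array with the most reads in wildtype at 0 h, which was position 0 in all libraries. Both directions from it were averaged, and densities are relative to the mean of a window of 900 bp on either side. The H3 shutoff cultures had a density at that nucleosome 4.80 and 5.20 above the next trough before depletion, and 1.48 and 1.96 after it. Wildtype had 6.55 and 6.30, the first in the library that chose the position. Its neighbour, 172 to 174 bp away, had a peak-to-trough height of 2.45 that dropped to 0.623 in replicate 1 and of 2.71 that dropped to 0.913 in replicate 2, with 3.32 and 3.25 in wildtype. The peaks were lower and the troughs filled. Nucleosomes displaced from their wildtype 0 h positions also lower this contrast, and displacement and lost spacing were not told apart here. The trough beside the central nucleosome rose from 0.362 and 0.306 of the window mean to 0.875 and 0.808, against 0.138 and 0.164 in wildtype. The third nucleosome on either side still had a height of 0.567 and 0.609 at 0 h and only 0.138 and 0.226 at 3 h. Its distance from position 0 went from 510 and 506 bp to 498 and 495 bp, and in wildtype from 507 to 504 bp. At such low heights the place of the maximum is poorly defined. In the mean autocorrelation the third repeat of H3 shutoff lay at 511 and 504 bp at 0 h and at 504 and 503 bp at 3 h.

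**Figure D3:**
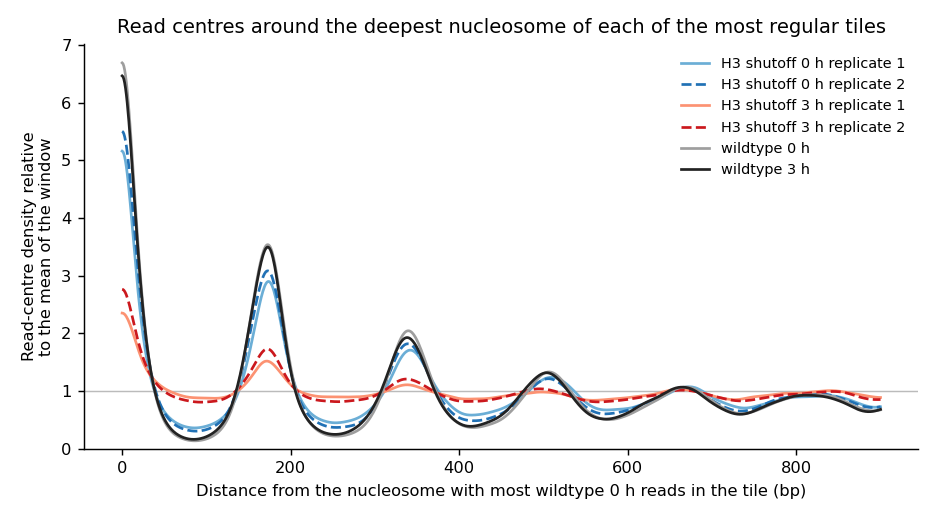
Read-centre density, relative to the mean of the window, against the distance in bp from the nucleosome with the most wildtype 0 h reads in the tile, averaged over the 601 arrays for each library. The central peak-to-trough height in H3 shutoff is 1.48 and 1.96 at 3 h where it was 4.80 and 5.20. The third peak is low at 3 h, with a height of 0.138 and 0.226.

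The 6 most regular arrays in wildtype at 0 h did not respond alike. At chr16:322001-324000 regularity in H3 shutoff was 0.859 and 0.868 at 0 h and 0.198 and 0.371 at 3 h, with 0.866 in wildtype at 3 h (limma estimate −0.58 ± 0.0945 (SE), adjusted p = 6.5e-07). At chr16:710001-712000 it was 0.801 and 0.863, then 0.276 and 0.362 (adjusted p = 9.2e-06), and at chr2:540001-542000 it was 0.827 and 0.827, then 0.335 and 0.423 (adjusted p = 0.000127). These 3 arrays lost more than 0.4 in each culture, and their 0 h and 3 h values did not come near each other.

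The other 3 of the 6 held on to more of their order. The most regular array of all, chr5:66001-68000, had 0.799 and 0.852 at 0 h and 0.514 and 0.696 at 3 h (adjusted p = 0.073). At chr11:64001-66000, which lies inside MNN4, a gene needed for adding mannosylphosphate to cell wall glycoproteins, it was 0.811 and 0.779, then 0.536 and 0.629 (adjusted p = 0.0858). In both arrays the 3 h values lay below the 0 h values, but the difference did not pass the test. At chr15:134001-136000 the cultures differed, with 0.874 and 0.843 at 0 h against 0.437 in replicate 1 and 0.769 in replicate 2 at 3 h (adjusted p = 0.0367).

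Of all 601, the arrays with the largest loss in both cultures went from well ordered to a repeat near 0 or weak. At chr16:702001-704000, a few kilobases from the run on chromosome 16, regularity was 0.707 and 0.674 at 0 h and 0.056 and 0.011 at 3 h (adjusted p = 1.2e-08). At chr5:170001-172000 it was 0.642 and 0.613, then −0.035 and 0.0082 (adjusted p = 2.6e-08). The array at chr12:696001-698000 overlaps DBP9, a DEAD-box RNA helicase of ribosome assembly, by 938 bp and YSH1, the endonuclease that cuts the 3′ ends of pre-mRNA, by 907 bp. It had 0.614 and 0.606 at 0 h and −0.024 and 0.021 at 3 h (adjusted p = 1.3e-07). The others were chr6:246001-248000 and chr15:278001-280000, with 3 h values of −0.039 and 0.165 and of 0.157 and 0.0755. In wildtype at 3 h these 5 arrays had 0.590 to 0.744.

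At the other end, the arrays with the highest regularity left at 3 h included some near the wildtype level. At chr4:512001-514000 it was 0.730 and 0.630 at 0 h and 0.737 and 0.689 at 3 h, with 0.700 in wildtype at 3 h. At chr14:56001-58000 it was 0.607 and 0.594, then 0.578 and 0.638, and at chr5:464001-466000 it was 0.785 and 0.765, then 0.650 and 0.680. None of the 3 passed the test (limma adjusted p = 0.83, 0.966 and 0.414), which does not show that they stayed unchanged. The remaining 2 were chr8:476001-478000 (0.687 and 0.655 at 3 h) and chr14:688001-690000 (0.633 and 0.728).

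Which arrays kept their order was shared by the cultures in part. Over the 601 arrays, regularity at 3 h in replicate 1 and replicate 2 correlated with r = 0.611, and at 0 h with r = 0.487. The change from 0 h to 3 h correlated with only 0.266. Regularity at 3 h in H3 shutoff (mean of the replicates) correlated with that in wildtype at 3 h with 0.225. In the other tiles, in the same order, r was 0.672, 0.709, 0.363 and 0.455. They span a wider range of wildtype 0 h regularity than the arrays, so their r is not directly comparable. These are descriptions over tiles, which share libraries and depth, and carry no p.

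**Figure D4:**
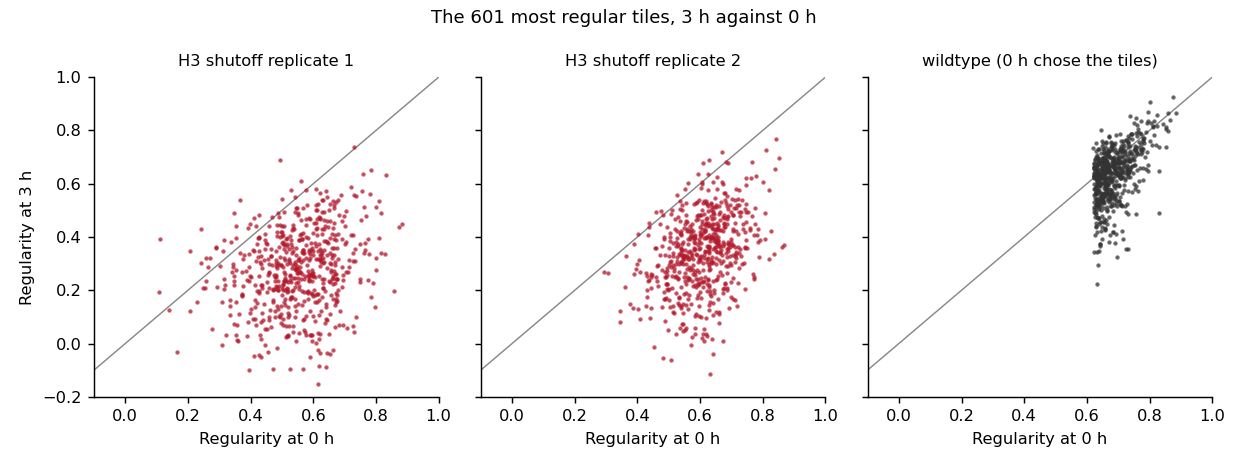
Regularity at 0 h (horizontal axis) against 3 h (vertical axis, no unit) for each of the 601 arrays, in panels for H3 shutoff replicate 1, replicate 2 and wildtype, with the line of no change. In H3 shutoff 571 and 586 points lie below the line. In wildtype, whose 0 h values chose the arrays, 425 do.

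The size of the loss followed the starting rank. Ranked into 10 groups by wildtype 0 h regularity, the tiles changed by −0.268 in the first group (the arrays), −0.219 in the second, −0.193 in the third and −0.170 in the fourth in H3 shutoff, down to −0.0470 in the ninth and −0.0036 in the last. The share of the 0 h level that was left in replicate 1 was 50.3% in the arrays and 51.7% in the second group, 56.2% in the eighth, 59.0% in the ninth and 52.1% in the last. In replicate 2 it was 56.6%, 58.3%, 84.5%, 90.5% and 185%. In the last group the replicate 2 levels were 0.047 and 0.0869, and such a ratio of low values cannot be read as a share kept. Between the arrays and the next group it differed by less than between the cultures.

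**Figure D5:**
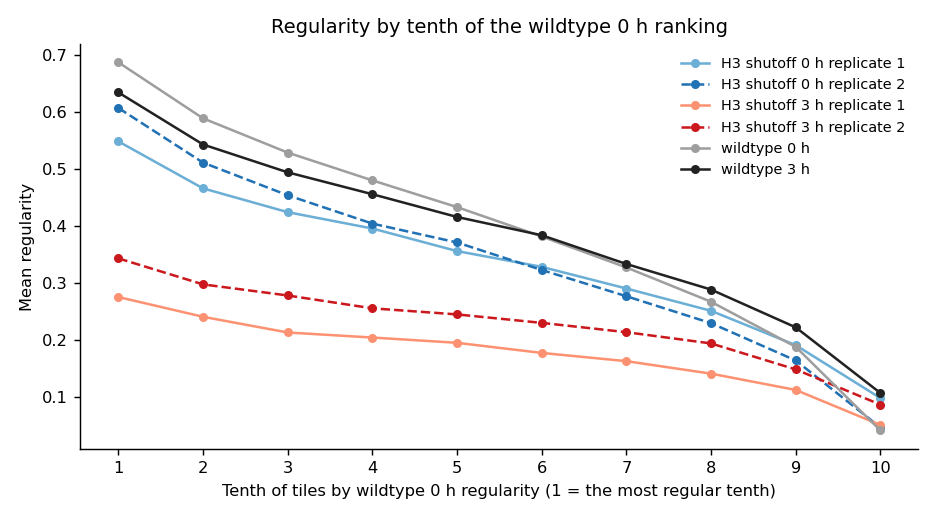
Mean regularity (no unit) in each library for the ranked tiles in 10 groups of 600 or 601, from the most regular in wildtype at 0 h to the least. The gap between the H3 shutoff 0 h and 3 h lines is widest in the first group, the arrays, and closes towards the last.

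Gene positions from a table of the study were used for chromosomes 1, 11, 12 and 13, which hold 140 arrays and 1294 other tiles. The table does not name its build, and its spans appear to mix transcripts with coding sequences, so a gene start here can be either. The reads gave a check: within 100 bp after the gene starts of these chromosomes there were 2.06 to 5.50 times as many read centres as 50 to 150 bp before them. Annotated genes covered 86.1% of the bases of these arrays and 77.8% of those of the other tiles. Of the 140 arrays, 26 (18.6%) lay wholly inside a single gene, against 15.1% of the other tiles, 62 held 1 gene start (44.3% against 37.0%), 40 held 2 or more (28.6% against 28.9%), and the other 12 held none without lying in a single gene.

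Arrays inside a single gene kept the smallest share of their order of the 4 kinds. In H3 shutoff their mean regularity was 0.530 and 0.580 before and 0.210 and 0.243 after depletion (39.6% and 41.9% left), and limma called 17 of 26 lower, against 11.2% of the other tiles inside a gene. With 2 or more gene starts it was 0.569 and 0.594, then 0.322 and 0.406 (56.7% and 68.4% left), and 16 of 40 were called, against 21.1% of such other tiles. The values with 1 start lay between them, at 0.559 and 0.613, then 0.272 and 0.358 (48.7% and 58.3% left, 38 of 62 called, against 21.8%). The remaining 12 arrays, with no gene start but not inside a single gene, kept 59.7% and 63.1%. Of these, 4 were called (33.3%), against 12.5% of such other tiles. Across the 4 kinds the share left thus did not follow the number of gene starts, with only 12 arrays in this kind. The low share inside a single gene was not seen in the other tiles of these chromosomes, where 57.0% and 79.4% were left inside a single gene and 49.1% and 70.2% with 2 or more starts. The groups were formed after results were seen and their difference was not tested.

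Single arrays inside a gene or with several gene starts, chosen after their values were seen, are examples and do not show the range. Inside DNM1, which encodes the dynamin-related GTPase of mitochondrial fission, the array at chr12:148001-150000 had 0.661 and 0.770 at 0 h and 0.252 and 0.263 at 3 h (limma adjusted p = 8.8e-05). Inside STE11, the MAP kinase kinase kinase of the mating pathway, chr12:850001-852000 had 0.600 and 0.660, then 0.179 and 0.111 (adjusted p = 3.1e-05). Both were sharply ordered in wildtype at 3 h, with 0.814 and 0.770. The array inside MNN4 (chr11:64001-66000) kept more in H3 shutoff: 0.811 and 0.779, then 0.536 and 0.629 (limma adjusted p = 0.0858). Among arrays with several gene starts, chr13:810001-812000 at SCS7, a sphingolipid hydroxylase gene, and ZDS1 had 0.678 and 0.680 at 0 h and 0.539 and 0.539 at 3 h (adjusted p = 0.281). The array at chr11:174001-176000, which holds starts of the proteasome ATPase gene RPT1 and the RNA polymerase III subunit gene RPC25, had 0.635 and 0.626, then 0.431 and 0.453 (adjusted p = 0.131).

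Fuzziness, the s.d. of the read centres that belong to a called nucleosome, rose. Its mean over the arrays went from 34.5 to 38.0 bp in H3 shutoff replicate 1 and from 32.7 to 39.7 bp in replicate 2, and was 28.3 and then 28.7 bp in wildtype. All 4 H3 shutoff values lay above both wildtype values, and both 3 h values above both 0 h values. The rise was 3.51 and 6.92 bp (mean 5.21 ± 2.41, SD, n = 2 pairs), and with at most 1 read per identical interval its mean was 2.97 ± 2.43. The other tiles rose by 1.43 and 4.48 bp and the wildtype arrays by 0.321 bp. Fuzziness was higher in both pairs in 512 arrays (85.2%), against 59.9% of the other tiles. Arrays started below the other tiles (36.2 and 34.9 bp at 0 h) and ended level with them (37.6 and 39.4 bp at 3 h).

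limma with the block called higher fuzziness in 274 arrays (45.6%), against 27.8% of all tiles, and lower fuzziness in 0, against 0.25%. At an unadjusted p under 0.05 the numbers were 359 and 0, against 2269 and 70 of all 6006 tiles. In this fit too every tile has the same standard error, 2.25 bp, so a call depends on the size of the estimated rise alone. Arrays started with lower fuzziness, and the shares called carry this difference in start. With a variance that follows the mean level 103 and 0 arrays were called, against 583 and 53 of all tiles. Leaving out a library moved the number called strongly in fits without the block. The median rise of the arrays then ran from 4.19 to 6.13 bp, against 5.23 bp in the main fit. The length that the authors assigned to each protected fragment, over which nucleosomes were called, went from 170 to 158 bp in H3 shutoff replicate 1 and from 172 to 165 bp in replicate 2, with 174 bp throughout in wildtype. It fell with the rise in fuzziness, and its part in the rise was not tested. Arrays whose regularity fell more did not reliably gain more fuzziness (r = −0.232 and −0.055 over 601 arrays). In the 5405 other tiles r was −0.348 and −0.337. The arrays were chosen from a narrow range of regularity, so r in the arrays and in the other tiles is not directly comparable.

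Positions moved or blurred as well. The density profile of an array at 0 h correlated with that at 3 h with a mean r of 0.605 and 0.655 in the H3 shutoff cultures (0.630 ± 0.035, SD, n = 2 pairs), and with 0.899 in wildtype. Replicates of H3 shutoff correlated with 0.862 at 0 h and 0.773 at 3 h, so the profiles of the cultures at 3 h were more like each other than like their own start. The wildtype 3 h profile correlated with H3 shutoff at 0 h with 0.852 and 0.890, and at 3 h with 0.511 and 0.619. In the other tiles the 0 h to 3 h values were 0.648 and 0.677, slightly above those of the arrays.

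Called nucleosome centres told the same. From a centre at 0 h to the nearest at 3 h, the median distance in the arrays was 17 and 15 bp in H3 shutoff and 5 bp in wildtype, and it was 5 bp between the 0 h replicates and 9 bp between the 3 h replicates. More than 40 bp separated 33.8% and 33.6% of centres in H3 shutoff and 19.6% in wildtype. Within 10 bp lay 41.4% and 44.0% in H3 shutoff and 64.5% in wildtype. With neighbouring centres 185 to 190 bp apart at the median, the nearest centre cannot be far away, and no chance value is given for these distances. In the other tiles the medians were 15 bp in both cultures.

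Reads in the arrays changed little. The share of all reads that the arrays held went from 10.7% to 10.2% and from 11.1% to 10.4% in the H3 shutoff cultures, and from 11.3% to 11.2% in wildtype. The median log2 change per array, on log2(reads + 1), was −0.067 and −0.089 (mean −0.078 ± 0.016, SD, n = 2 pairs), against 0.015 and 0.028 in the other tiles and −0.010 in the wildtype arrays. Reads were lower in both pairs in 288 arrays (47.9%) and higher in both in 143 (23.8%), while in the other tiles the shares were 31.4% and 38.1%. With at most 1 read counted per identical interval the sign turned, to a median of 0.237 in the arrays, and the other tiles had 0.249. The part of the arrays' reads that lay on distinct intervals went from 51.5% to 60.5% and from 49.5% to 65.3% in the cultures, and from 44.3% to 43.2% in wildtype.

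edgeR with the culture as a block called fewer reads in 28 arrays (4.66%), against 2.56% of all tiles, and more reads in 8 (1.33%), against 4.28%. DESeq2 called 4 and 0, against 20 and 0 of all tiles, but gave an adjusted p to only 417 of the 6006 tiles. Without the block, edgeR called 56 and 11, against 331 and 357 of all 6006 tiles. In fits without the block that also lacked a library, the numbers called moved strongly for the arrays and for all tiles. The median log2 change of the arrays then ran from −0.112 to −0.0627, against −0.0830 in the main fit. The number of arrays called for reads therefore depends on single libraries.

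The largest changes in reads were on a scale that the median does not show. At chr14:92001-94000 the H3 shutoff reads went from 471 to 845 and from 509 to 824, and those of wildtype from 437 to 346 (edgeR log2 change 0.76, adjusted p = 0.0235). The cultures disagreed on the order of this array already at 0 h, with a regularity of 0.109 in replicate 1 and 0.619 in replicate 2. At chr7:1020001-1022000 the reads went from 512 and 601 to 878 and 825, and at chr5:550001-552000 from 452 and 473 to 690 and 718.

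The steepest fall was at chr7:594001-596000, from 1493 and 1381 reads to 821 and 867, with 1535 and 1802 in wildtype (edgeR log2 change −0.78, adjusted p = 0.0172). Its regularity was 0.752 and 0.765 at 0 h and 0.466 and 0.479 at 3 h. At chr5:364001-366000 the reads went from 1460 and 1294 to 885 and 923, and at chr3:72001-74000 from 1415 and 1513 to 898 and 1070. These 3 arrays were chosen by their change in these same reads, so the separation of their 0 h and 3 h values follows from the choice. Loss of order and loss of reads were hardly related across the 601 arrays. The change in regularity and the log2 change in reads correlated with r = 0.089 and −0.008. In the other tiles, which span a wider range of wildtype 0 h regularity, r was 0.170 and 0.226.

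The runs of 3 adjacent arrays kept different amounts of their order. On chromosome 16 (chr16:706001-712000) the mean regularity was 0.695 and 0.718 at 0 h and 0.263 and 0.381 at 3 h. On chromosome 7 (chr7:210001-216000) it was 0.564 and 0.637, then 0.421 and 0.465. On chromosome 15 (chr15:218001-224000) it was 0.594 and 0.617, then 0.319 and 0.377. The run on chromosome 2 (chr2:40001-46000) had 0.480 and 0.606, then 0.250 and 0.341, and that on chromosome 14 (chr14:568001-574000) 0.436 and 0.645, then 0.322 and 0.349. In all 5 runs both 3 h values lay below both 0 h values. The same held in 89.9% of single arrays and in 58.3% of all ranked tiles. In wildtype at 3 h the runs had 0.507 to 0.730.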

How the data were processed

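According to the study's methods, the authors aligned single-end reads with Bowtie (version 0.12.6 per the labels) to the sacCer1 build, extended each read to the average protected length of its library, removed ribosomal DNA reads and drew equal numbers of reads at random. The deposited files list 1 interval per extended read, and read centres were counted from them per 2000 bp tile as whole-number counts. The authors also deposited called nucleosomes with the counts of read centres of each and their s.d. in bp, used here as fuzziness for nucleosomes with more than 5 read centres.

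The density was smoothed with a Gaussian of s.d. 10 bp limited to 3 s.d., and regularity was the Pearson correlation of a tile with itself after the shift. Position agreement is the correlation of the densities of a tile in different libraries. Tiles with at least 50 read centres in every library were tested, all 6006. Regularity and fuzziness were fitted with limma 3.58.1 (R 4.3.3), and reads with edgeR 4.0.16 (quasi-likelihood, TMM) and, as an alternative, DESeq2 1.42.0. All 6 libraries entered each fit, and wildtype has 1 library a time, so the spread comes from H3 shutoff. p-values were adjusted by Benjamini-Hochberg over all tiles and called under 0.05, except that DESeq2 left all but 417 tiles without an adjusted p. Against wildtype at 3 h no block was used. Fits were tested on simulated data with 200 changed tiles.

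Groups and replicate numbers came from the titles. Per the methods a replicate is 1 culture sampled at both times, so the number pairs the libraries. As a check of this block, deviations from the group means correlated between times with r = −0.083 (regularity), −0.119 (log2 reads) and 0.026 (fuzziness), so the pairing rests on the design alone. How far replicates 1 and 2 were grown apart is not given in the sources used here, and p-values measure only the spread between these samples.

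Members, gene groups and tests were chosen with earlier results of these data known. Most named tiles were taken by rank: the 6 highest in wildtype at 0 h, the 3 on each side of the limit and the longest runs. Also by rank came the 5 with the highest regularity left and the 5 with the largest loss at 3 h, and the 3 with the largest rise and fall in reads. The arrays at DNM1, STE11, SCS7 and ZDS1, RPT1 and RPC25, and TSL1 were instead picked after their values were seen. Gene positions came from a supplementary table of the study, shortened in the form used here but complete for these chromosomes, names only from the RefSeq R64 table, which matched 1349 of 1491 genes on the 4 chromosomes used. Chromosome 10 was left out after its gene starts were seen to be displaced against the reads. No sequence is given, since a genome of this build was not used here. Alternatives covered smoothing, the form of the correlation, repeated intervals, the share of tiles kept, the tile start, minimum depth, scaling, the block and leaving out libraries.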

Additional observations from a re-analysis of the deposited data

Results flagged for a closer look

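In 4 measures the arrays of both H3 shutoff pairs moved one way and those of the single wildtype pair the other, and in none of them was the difference between strains tested. The mean number of called nucleosomes per array rose by 0.411 and 0.384 in H3 shutoff (mean 0.398) and changed by −0.106 in wildtype. Distances of 250 bp or more between neighbouring called centres became fewer in H3 shutoff, by −4.92 and −5.22 percentage points (mean −5.07), and more frequent in wildtype, by 2.36. The share of distinct intervals among the reads of the arrays rose by 8.97 and 15.8 percentage points (mean 12.4) in H3 shutoff and changed by −1.06 in wildtype. Per array, the median log2 change in distinct intervals was 0.169 and 0.305 (mean 0.237), against −0.0393 in wildtype.

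The other tiles changed in the same direction in the H3 shutoff strain. Called nucleosomes per tile rose there by 0.550 and 0.485, and the median log2 change in distinct intervals was 0.173 and 0.326. The protected length over which nucleosomes were called was shorter at 3 h (158 and 165 bp) than at 0 h (170 and 172 bp), and its part in the number of called nucleosomes was not tested.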

How the results depend on the processing

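Of 72 alternatives beside leaving out libraries, 57 changed a value by less than 1 SD of the pairs or a count by less than 1.5 times, 14 changed it by more and 1 reversed it. Among the 57, the fuzziness change was 2.97 bp with 1 read per identical interval and 3.78 bp in fixed windows of 50 bp. Also among them, 237 arrays had lower regularity with a smoothing s.d. of 20 bp, against 849 of all 6006 tiles. The change in regularity of the arrays was −0.275 with a smoothing s.d. of 20 bp, −0.228 with the mean and variance of the whole tile, −0.281 at the wildtype 0 h shift, −0.239 with 1 read per identical interval, −0.287 for the top 5% of tiles and −0.244 for the top 20%. With 1 read per identical interval the excess loss over other tiles was −0.0939 and the read change reversed to 0.237. With a smoothing s.d. of 20 bp, 207 arrays were called less regular than in wildtype at 3 h, against 813 of all 6006 tiles. A variance that follows the mean level gave 103 arrays with higher fuzziness, against 583 of all tiles. DESeq2, with an adjusted p for 417 tiles only, called 4 arrays with fewer and 0 with more reads, against 20 and 0 of all tiles.

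Without the replicate block 56 arrays had fewer and 11 more reads, against 331 and 357 of all 6006 tiles. Lower regularity was called in 287 arrays and higher in 0, against 1037 and 13 of all tiles. Higher fuzziness was called in 338 arrays and lower in 0, against 2107 and 45 of all tiles. A crossed pairing in the block, added after the data were seen, called 96 arrays with fewer and 24 with more reads, against 616 and 536 of all tiles.

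With 1 replicate left out, the regularity change ran from −0.272 to −0.263, the repeat length change from −1 to 1 bp, the fuzziness change from 3.51 to 6.92 bp, the read change from −0.0891 to −0.0669, the excess loss from −0.171 to −0.128 and position agreement from 0.605 to 0.655. Calls ran from 86 to 331 for lower and 0 to 0 for higher regularity, 0 to 119 for fewer and 0 to 73 for more reads, 135 to 353 for higher and 0 to 0 for lower fuzziness, and 218 to 367 for lower and 0 to 0 for higher regularity against wildtype at 3 h. Calls over all tiles moved in these fits too, so these ranges are no result about the arrays. A fit that leaves 1 library at a time assumes that it varies like the others. The causes of these differences were not tested.

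Both H3 shutoff cultures and a single wildtype pair limit the precision, and the wildtype values have no replicate error. With equal numbers of reads per library, an even loss of nucleosomes could not be seen. The length given to the reads was an average per library.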

Other observations

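Over chromosomes 1, 11, 12 and 13, arrays inside a single gene included those in TSL1, a subunit gene of the trehalose synthase complex, where regularity at chr13:72001-74000 was 0.588 and 0.553 at 0 h and −0.052 and 0.050 at 3 h in H3 shutoff. This array was chosen after its values were seen. Ranked by the reads in wildtype at 3 h, the 203 arrays with the fewest reads had a median log2 change in reads of 0.18 and 0.05 in H3 shutoff, and the 201 with the most had −0.24 and −0.21. Regularity left at 3 h was alike in these groups in replicate 1 (49.9% and 51.4%) and differed somewhat in replicate 2 (52.8% and 60.2%).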
